A study of Mus musculus with 6 samples.

Results

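Ccl2, Ccl7, Ccl17, Ppbp and Pf4 are the 5 chemokine genes examined here in mouse embryonic fibroblasts (MEFs) that lack BAHD1, a repressor of chromatin. They were picked by symbol from the study's table of genes that it called different between the genotypes. That table names 491 of the 23332 transcript clusters measured. A transcript cluster is the set of probes that the array assigns to 1 gene. The choice rests on the same arrays and the same comparison as the values below, so the differences between genotypes are given as a description, without a test. Relative to Bahd1-WT, the Bahd1-KO cultures had more Ccl2, Ccl7, Ccl17 and Ppbp signal and less Pf4 signal.

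Primary MEFs of C57BL/6 embryos at E13.5 were studied, 3 cultures of the genotype Bahd1-KO and 3 of the genotype Bahd1-WT, all from crosses between Bahd1+/- mice. Each culture stands for 1 embryo and was hybridised to its own Mouse Exon 1.0 ST array. The Bahd1-KO embryos carry a total ablation of the gene in every cell, so a change in the fibroblasts and one in the embryo before the cells were taken cannot be told apart. Each carcass without its head was minced and digested on its own and the cells were grown in fibroblast medium, frozen, thawed and then grown for 1 more passage, a step meant to deplete cells that do not divide. Dividing cells of other types from the body wall and organs may remain. In such bulk RNA, fewer cells of a type and less RNA per cell cannot be told apart. Expression is given as the deposited log2 signal after RMA, and each difference is Bahd1-KO minus Bahd1-WT.

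Chemokines are small secreted proteins that guide white blood cells along a gradient by binding receptors coupled to G proteins. The CC and CXC families are named for the spacing of the first conserved cysteines. Their genes lie in tight clusters that arose by duplication, and fibroblasts release several of them when they meet inflammatory cytokines or growth factors. Ccl2 and Ccl7 attract monocytes through the receptor CCR2. Ccl17 attracts T cells that carry CCR4. Ppbp encodes the precursor of a platelet chemokine that attracts neutrophils, and Pf4, or platelet factor 4, is a heparin-binding chemokine of platelet granules.

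Sequences upstream of the start site are shown for Ppbp and Pf4, next to each other on chromosome 5 and different in direction here, and for Ccl17, the gene with the largest difference of the 5. RefSeq entries of build GRCm38.p6 were matched for these 3 of the 5 genes. Each runs 250 bases from 5′ to 3′ and ends just before the start site, on the plus strand, with matches to the motifs searched in capitals. The windows are chr5:90768268-90768517 for Ppbp, chr5:90772185-90772434 for Pf4 and chr8:94810203-94810452 for Ccl17.
Ppbp: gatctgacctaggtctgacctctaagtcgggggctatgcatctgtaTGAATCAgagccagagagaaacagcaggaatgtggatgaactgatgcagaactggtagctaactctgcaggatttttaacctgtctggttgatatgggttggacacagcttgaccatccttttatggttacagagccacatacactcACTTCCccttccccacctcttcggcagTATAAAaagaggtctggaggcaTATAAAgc
Pf4: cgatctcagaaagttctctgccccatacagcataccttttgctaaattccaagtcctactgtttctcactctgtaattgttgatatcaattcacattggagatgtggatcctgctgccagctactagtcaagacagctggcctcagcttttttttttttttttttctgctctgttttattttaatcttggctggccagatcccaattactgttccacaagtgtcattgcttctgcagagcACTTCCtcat
Ccl17: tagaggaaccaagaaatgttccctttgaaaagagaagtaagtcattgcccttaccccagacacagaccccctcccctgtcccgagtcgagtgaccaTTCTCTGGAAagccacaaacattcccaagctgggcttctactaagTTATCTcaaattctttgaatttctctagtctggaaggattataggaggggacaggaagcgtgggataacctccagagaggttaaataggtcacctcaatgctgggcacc

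Motifs of 7 factors or boxes were searched on both strands, and each but the NF-kB consensus is spelled out where it is first given. The Ppbp window held the TATA box, TATAAA, at -30 to -25 and again at -8 to -3, counted from the start site, with 12.4% of all 32851 windows of this length holding at least 1 match. It also held a match to the AP-1 motif TGANTCA at -204 to -198 (6.75% of windows) and a match to the ETS motif GGAAGT on the minus strand at -57 to -52 (19.7% of windows). The Pf4 window held 1 match, to ETS on the minus strand at -10 to -5, and no TATAAA. The Ccl17 window held a STAT6 match, TTC followed by any 4 bases and then GAA, at -154 to -145 (5.85% of windows) and a match to AGATAA, the motif of the GATA factors, on the minus strand at -109 to -104 (9.99% of windows). The 3 windows held no match to the SP1 motif GGGCGG (32.7% of windows) or to the NF-kB consensus (7.25% of windows). None of these matches overlap each other. A match says only that these letters are present.

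The monocyte chemokine genes Ccl2 and Ccl7 were both higher in Bahd1-KO cultures, by similar amounts. Ccl2 was at 10.45, 10.37 and 10.37 in Bahd1-KO MEFs 1 to 3, against 9.58, 9.93 and 9.52 in Bahd1-WT MEFs 1 to 3. The groups did not overlap, and the Bahd1-WT MEFs 2 lay nearest to the Bahd1-KO cultures. The mean was 10.40 ± 0.05 in Bahd1-KO and 9.68 ± 0.23 in Bahd1-WT MEFs (SD, n = 3 each). These means differ by 0.72 on the log2 scale (standard error 0.13), or 1.65-fold. Ccl7 was at 10.26, 10.54 and 10.36 in Bahd1-KO MEFs, against 9.48, 9.65 and 9.39 in Bahd1-WT MEFs. Its lowest Bahd1-KO value lay 0.61 above its highest Bahd1-WT value, a wider gap than the 0.43 of Ccl2. The log2 difference of Ccl7 was 0.88 (standard error 0.11), or 1.84-fold, from means of 10.39 ± 0.14 and 9.51 ± 0.13 (SD, n = 3 each) in Bahd1-KO and Bahd1-WT MEFs.

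Ccl17, the T cell chemokine gene, differed most. It was at 6.45, 7.01 and 7.08 in Bahd1-KO MEFs, against 5.24, 5.42 and 5.54 in Bahd1-WT MEFs. Its Bahd1-WT signal was the lowest of the 5 genes. It lay not far above the medians over all clusters, 5.01 to 5.05 in the Bahd1-WT arrays. The Bahd1-KO MEFs 1 lay below the other two Bahd1-KO cultures and still 0.91 above the highest Bahd1-WT culture. Mean log2 signals of 6.84 ± 0.35 in Bahd1-KO and 5.40 ± 0.15 in Bahd1-WT MEFs (SD, n = 3 each) gave a log2 difference of 1.45 (standard error 0.19), or 2.72-fold.

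The platelet chemokine genes Ppbp and Pf4 differed in opposite directions. Ppbp was at 7.44, 7.30 and 7.20 in Bahd1-KO MEFs, against 6.46, 6.68 and 6.39 in Bahd1-WT MEFs. All Bahd1-KO cultures lay above all Bahd1-WT cultures, with a gap of 0.52. The log2 difference was 0.80 (standard error 0.11), or 1.75-fold, from means of 7.31 ± 0.12 in Bahd1-KO and 6.51 ± 0.15 in Bahd1-WT MEFs (SD, n = 3 each). Pf4 was at 7.14, 7.52 and 6.87 in Bahd1-KO MEFs, against 7.72, 7.65 and 8.11 in Bahd1-WT MEFs. Here the Bahd1-KO cultures were the lower ones, and only 0.13 separated the Bahd1-KO MEFs 2 from the Bahd1-WT MEFs 2. The log2 difference of Pf4 was -0.65 (standard error 0.21), a 1.57-fold lower level, from means of 7.18 ± 0.33 in Bahd1-KO and 7.83 ± 0.25 in Bahd1-WT MEFs (SD, n = 3 each).

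**Figure D1:**
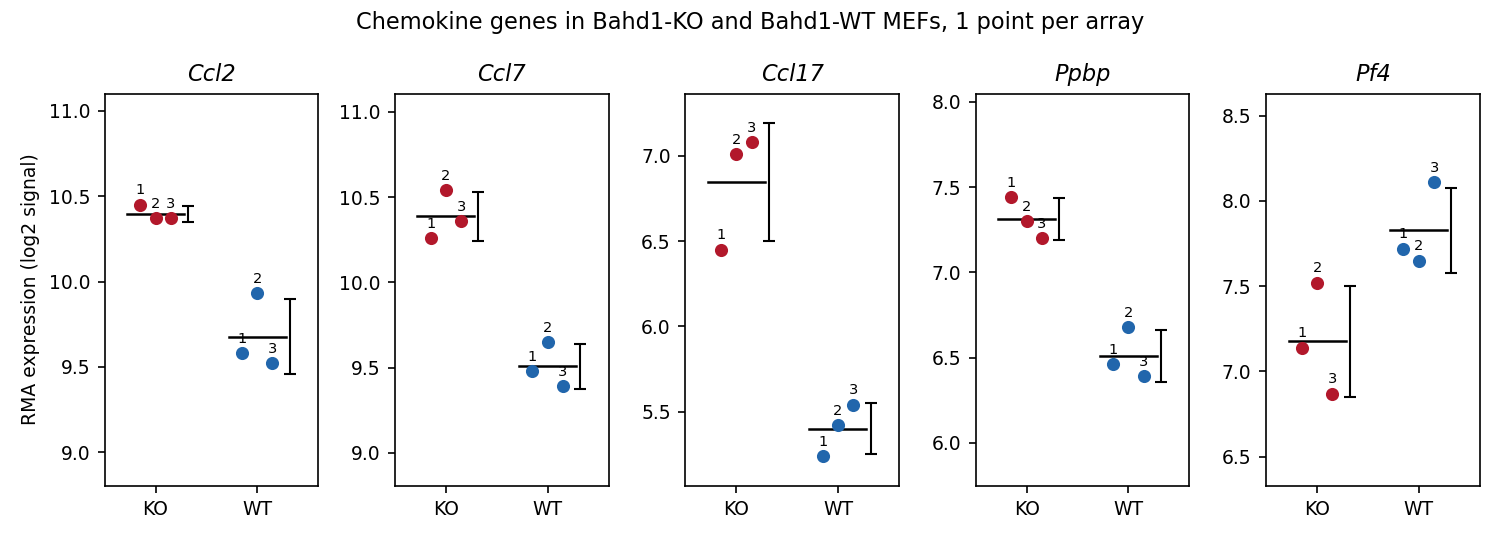
Log2 RMA signal (y axis, a window of the same height for each gene) of the 5 chemokine genes in each array, Bahd1-KO in red and Bahd1-WT in blue, with the replicate number beside each point, the mean as a line and the SD as an error bar (n = 3). The groups do not overlap in any of the 5 genes, and Pf4 is the gene with the Bahd1-KO arrays below, with the smallest gap of 0.13.

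The size of these differences was set against all clusters and against the study's table. Of all 23332 clusters, 11.4% had every Bahd1-KO array above every Bahd1-WT array and 6.64% had every Bahd1-KO array below, while in the study's table these shares were 59.7% and 17.3%. All 5 chemokine genes had their arrays apart in this way, 4 above and 1 below, which the choice of the genes from that table does not leave independent. A log2 difference of 1 or more, reached by Ccl17 alone among the 5, was found in 0.364% of all clusters and in 4.68% of the named ones. The log2 difference of Ccl17 exceeded that of 99.9% of all clusters, Ccl7 that of 99.3%, Ppbp that of 99.1% and Ccl2 that of 98.6%. Only 2.06% of all clusters had a lower difference than Pf4, while a log2 difference of -1 or less, which Pf4 did not reach, was found in 0.553%. The median log2 difference of the 5 genes was 0.80, beside 0.43 over the 491 named clusters and 0.02 over all clusters.

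**Figure D2:**
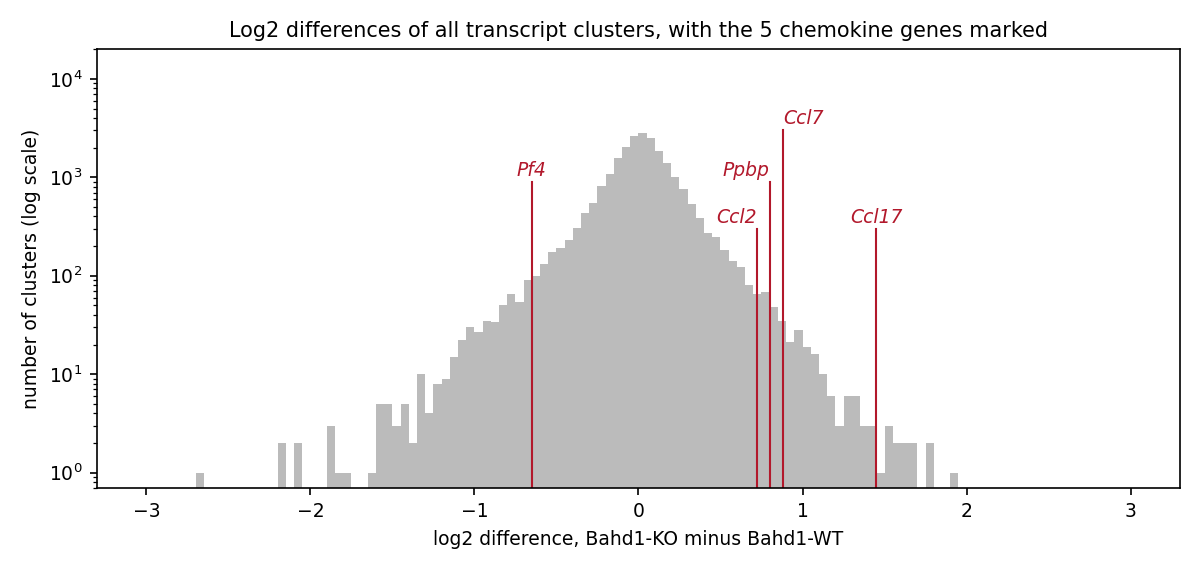
Number of transcript clusters (y axis, log scale) by log2 difference, Bahd1-KO minus Bahd1-WT (x axis, bins of the same width), over all 23332 clusters, with a red line at the difference of each of the 5 chemokine genes. Ccl17 at 1.45 lies in the far right tail, Ccl2, Ppbp and Ccl7 lie between 0.72 and 0.88, and Pf4 lies on the left at -0.65.

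The 5 genes fall into 3 chromosomal groups, and the study's table names neighbours of each. Positions are those of the array annotation, whose genome build is not named in the sources used here, and are not to be set against the GRCm38.p6 windows above. Ccl2 (chr11:81802935-81850945) and Ccl7 (chr11:81859216-81861021) lie on the plus strand of chromosome 11 with 8270 bases between their clusters. Ccl11, the eosinophil attractant eotaxin, follows after another 10324 bases. In RefSeq, Ccl7 is the only protein-coding gene between Ccl2 and Ccl11. The cluster of Ccl17 (chr8:97306581-97335923) begins 261 bases after that of Cx3cl1, the membrane-bound chemokine fractalkine, on the plus strand of chromosome 8. This is a distance between clusters and not between the genes themselves. In GRCm38.p6, the window upstream of Cx3cl1 ends at 94772179 and that of Ccl17 at 94810452. Ppbp (chr5:91197544-91199079) and Pf4 (chr5:91201483-91202729) lie 2403 bases apart on the plus strand of chromosome 5, with no other protein-coding gene between them in RefSeq.

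The clusters differ in how much of the genome they cover. The cluster of Ccl2 spans 48011 bases with 76 probes and that of Ccl17 spans 29343 bases with 71 probes, while Ccl7 has 24 probes over 1806 bases, Ppbp 20 over 1536 and Pf4 32 over 1247. The values of Ccl2 and Ccl17 thus summarise probes spread over a far longer stretch than those of the other three genes. Whether all of these probes read the chemokine transcript was not tested, because the deposited values are already summarised by cluster.

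On chromosome 11, the named neighbour of Ccl2 and Ccl7 was higher as well. Ccl11 was at 8.30, 8.92 and 8.38 in Bahd1-KO MEFs, against 7.63, 7.88 and 8.00 in Bahd1-WT MEFs, apart by 0.31, with a log2 difference of 0.70 (standard error 0.19). The shifts of the 3 neighbours were of similar size. Within each array, the log2 ratio of Ccl2 to Ccl7 was -0.34 to 0.02 in Bahd1-KO MEFs relative to its Bahd1-WT mean, against -0.07 to 0.11 in Bahd1-WT MEFs, and overlapped between the genotypes. The ratio of Ccl7 to Ccl11 overlapped too, at -0.05 to 0.30 in Bahd1-KO and -0.28 to 0.17 in Bahd1-WT MEFs.

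Ccl3, a macrophage chemokine gene, lies farther along chromosome 11 on the minus strand, 31 protein-coding genes beyond Ccl11 in RefSeq. It was at 7.29, 7.55 and 7.53 in Bahd1-KO MEFs, against 8.17, 8.03 and 8.44 in Bahd1-WT MEFs. Like Pf4 it was lower in Bahd1-KO MEFs, with a log2 difference of -0.76 (standard error 0.14) and a gap of 0.48 between the groups.

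On chromosome 8, both neighbours were higher and by unequal amounts. Cx3cl1 was at 8.59, 8.94 and 9.13 in Bahd1-KO MEFs, against 8.28, 8.15 and 8.40 in Bahd1-WT MEFs, with a log2 difference of 0.61 (standard error 0.16). Relative to its Bahd1-WT mean, the log2 ratio of Ccl17 to Cx3cl1 was 0.74 to 0.95 in Bahd1-KO MEFs and -0.16 to 0.15 in Bahd1-WT MEFs. The ratio was thus apart in all arrays, with a mean of 0.84, or 1.79-fold.

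On chromosome 5, Ppbp and Pf4 were apart in opposite directions. Their ratio therefore had to differ by more than either gene and to separate the arrays. Relative to its Bahd1-WT mean it was 1.10 to 1.64 in Bahd1-KO MEFs and -0.41 to 0.35 in Bahd1-WT MEFs, with a mean of 1.46 on the log2 scale, or 2.74-fold. The next named gene, Ereg, an EGF receptor ligand 296272 bases beyond Pf4, was at 7.30, 7.16 and 7.61 in Bahd1-KO MEFs, against 6.64, 7.04 and 6.30 in Bahd1-WT MEFs. Pf4 is therefore a lower gene between 2 higher named ones. RefSeq places 6 protein-coding genes between Pf4 and Ereg, the CXC chemokine genes Cxcl3, Cxcl15, Cxcl1 and Cxcl2 among them, and the files used here name the cluster of none of these.

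The study's table holds 30 pairs of neighbouring named clusters that lie within 50000 bases of each other. The members of 27 pairs differed in the same direction, the pairs of Ccl2 with Ccl7, Ccl7 with Ccl11 and Cx3cl1 with Ccl17 among them. The 3 pairs of opposite direction were Ppbp with Pf4, Cbr1 with Cbr3, and Pisd-ps3 with Sfi1, the last with no bases between their clusters. These pairs are described as found, since every cluster in the table was chosen for its difference. As 354 of the 491 named clusters were higher, many pairs would share a direction whatever their position. Some pairs are also successive members of a run, such as the Hoxa genes, or clusters with no bases between them.

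**Figure D3:**
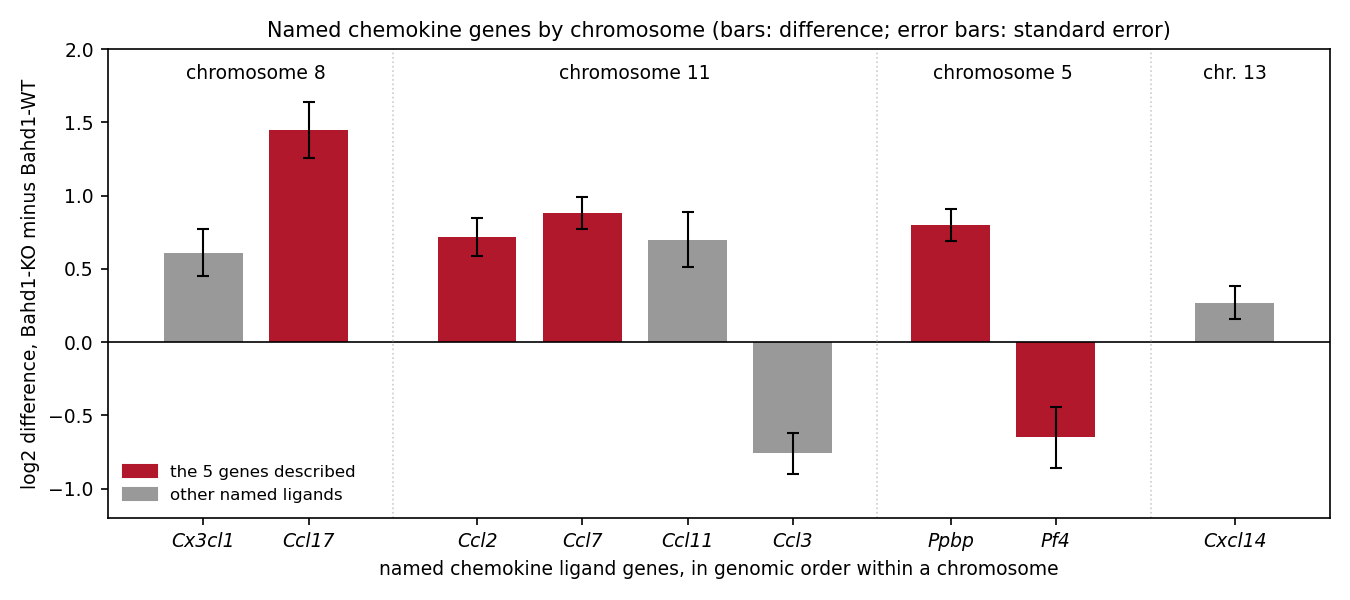
Log2 difference (y axis, Bahd1-KO minus Bahd1-WT, with limma's standard error) of the 9 chemokine ligand genes named in the files, in genomic order within each chromosome (x axis), the 5 genes described in red and the other four in grey. Neighbours on chromosomes 8 and 11 share a direction up to Ccl11, while Ccl3 at -0.76 and Pf4 at -0.65 are below 0.

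Among cultures of 1 genotype, the deviations of the 5 genes had no common sign. Pearson's r of the deviations from the genotype means, over the 6 arrays, ran from -0.60 to 0.86 over the 10 pairs, with a median of 0.12. Over all 120295 pairs of named clusters the 5th percentile of r was -0.84, the median 0.05 and the 95th percentile 0.87. The neighbours Ccl2 and Ccl7 had an r of 0.54, which was -0.46 without the Bahd1-WT MEFs 2, a culture high in both. The neighbours Ppbp and Pf4 had an r of -0.22, and it was 0.10 without the Bahd1-WT MEFs 2 and 0.16 without the Bahd1-WT MEFs 3. Ccl2 varied most closely with Ppbp on another chromosome (r = 0.86), both being highest in the Bahd1-KO MEFs 1 and the Bahd1-WT MEFs 2 of their genotype. Ccl17 varied with its neighbour Cx3cl1 (r = 0.87), with deviations of the same sign in 4 of the 6 arrays. Both were lowest in the Bahd1-KO MEFs 1 among the Bahd1-KO cultures. For this pair, r without that culture was not computed. These values describe 6 arrays that share their normalization.

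The spread within a genotype differed between the genes. Pf4 and Ccl17 had pooled SDs of 0.29 and 0.27, larger than those of 75.9% and 73.0% of all clusters. Ccl2, Ccl7 and Ppbp, at 0.16, 0.14 and 0.14, lay near the median of 0.15 over all clusters.

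**Figure D4:**
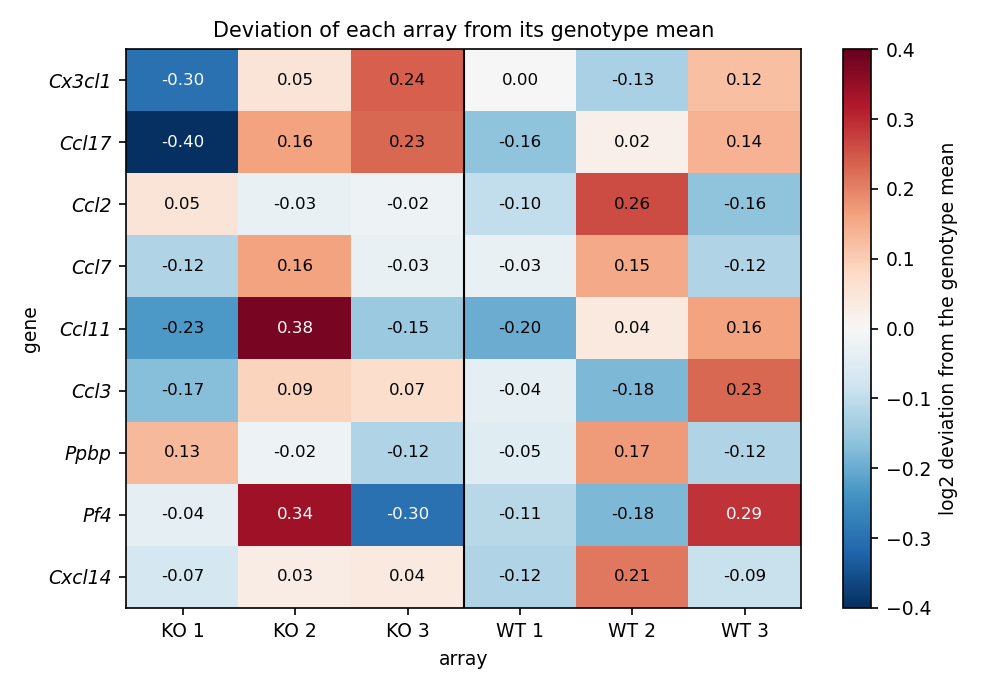
Deviation of each array from the mean of its genotype on the log2 scale (colour and printed value) for the 9 named chemokine ligand genes (rows, in genomic order) in the 6 arrays (columns, replicate numbers of the labels). The Bahd1-WT MEFs 2 are the highest of their genotype for Ccl2, Ccl7, Ppbp and Cxcl14, and the Bahd1-KO MEFs 1 deviate most for Ccl17 at -0.40.

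The Bahd1-KO MEFs 2 and 3 and the Bahd1-WT MEFs 2 had high signals of Y-linked genes, with means of 7.06, 7.03 and 7.19 over Ddx3y, Eif2s3y and Kdm5d, against 2.36 to 2.38 in the other three cultures. Y-linked signal was thus found in 2 of 3 Bahd1-KO and 1 of 3 Bahd1-WT cultures. With that level as a covariate, the log2 differences were 0.67 for Ccl2, 0.81 for Ccl7, 1.35 for Ccl17, 0.79 for Ppbp and -0.62 for Pf4.

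Of a list of 38 mouse chemokine ligand genes, the files used here name 9, as they name 491 of all 23332 clusters. Among these 9, which include the 5 genes described, 7 were higher and 2 lower in Bahd1-KO MEFs. Over all 491 named clusters, 354 were higher and 137 lower. The median log2 difference was 0.70 over the 9 genes and 0.43 over all named clusters. The ninth, Cxcl14, was at 8.60, 8.70 and 8.72 in Bahd1-KO MEFs, against 8.29, 8.61 and 8.31 in Bahd1-WT MEFs. Its groups overlapped, as the Bahd1-WT MEFs 2 lay above the Bahd1-KO MEFs 1. None of 25 chemokine receptor genes is named, so the levels of CCR2 and CCR4, the receptors for Ccl2, Ccl7 and Ccl17, were not looked up here.

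Genes known to induce chemokines or to share their regulators were also in the study's table, and all of those named were higher in Bahd1-KO MEFs. Of 20 cytokine and growth factor genes listed, 6 are named and all 6 had every Bahd1-KO array above every Bahd1-WT array, as did 59.7% of named and 11.4% of all clusters. Il6, a cytokine of the acute phase response, was at 6.16, 6.56 and 6.56 in Bahd1-KO MEFs, against 4.72, 5.41 and 5.42 in Bahd1-WT MEFs, which gives a difference of 1.24 (standard error 0.23). Tnfsf15, a TNF family ligand, was higher by 1.19 (standard error 0.12). The Bahd1-WT means of Il6 and Tnfsf15, 5.18 and 5.08, lay near the medians of the Bahd1-WT arrays, 5.01 to 5.05. The others were Csf1 and Lif, each by 0.67, Tslp by 0.60 and Pdgfa by 0.38. Of 21 genes of the NF-kB pathway and its targets, 3 are named. Bcl3, a nuclear cofactor of NF-kB, was higher by 0.76, Ptgs2, which makes prostaglandins, by 0.53 and the adhesion molecule Vcam1 by 0.41. Of 9 AP-1 genes, Fosl1 alone is named, and was higher by 0.69. These genes come from the same table of calls as the chemokines, and 354 of its 491 clusters were higher in Bahd1-KO MEFs.

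Few markers of the cells that best express these chemokines are named. Of 20 macrophage markers, Csf1r alone is, at 6.28, 6.63 and 6.74 in Bahd1-KO MEFs, against 6.16, 6.15 and 6.05 in Bahd1-WT MEFs. Of 17 markers of platelets and megakaryocytes, Selp was higher by 0.90 and Itgb3 by 0.68, and their mean log2 level was 6.56 to 6.78 in Bahd1-KO and 5.72 to 6.05 in Bahd1-WT MEFs. Of the platelet chemokine genes described above, Ppbp was higher by 0.80 in the same cultures, and the difference of Pf4 was -0.65. Of 14 endothelial markers, Emcn was higher by 1.25 with its groups apart, while the groups of Flt1 overlapped, with a mean difference of 0.56. The mean log2 level of both was 6.94 to 7.17 in Bahd1-KO and 5.90 to 6.34 in Bahd1-WT MEFs. Selp and Emcn had Bahd1-WT means of 4.94 and 4.69, below the medians of the Bahd1-WT arrays, 5.01 to 5.05. None of 13 dendritic cell markers is named. The passage after thawing would act on those of these cells that do not divide. The part of such cells in the chemokine values was not tested, as the defining markers Ptprc, Adgre1, Itga2b and Pecam1 have no name in the files.

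Of 14 fibroblast markers, 2 are named, both from the study's calls, so they cannot check the label of embryonic fibroblasts. Pdgfra, a receptor of mesenchymal cells, was at 8.36, 8.50 and 8.13 in Bahd1-KO MEFs, against 8.74, 8.80 and 9.10 in Bahd1-WT MEFs, with a log2 difference of -0.55. The matrix gene Lum was at 7.84, 7.65 and 7.34 in Bahd1-KO MEFs, against 7.97, 8.04 and 8.61 in Bahd1-WT MEFs, with a log2 difference of -0.59. Neither gene overlapped between the genotypes. Every Bahd1-KO array was likewise below in 17.3% of named and 6.64% of all clusters. The part of the fibroblast share in the chemokine values was not tested. Of other lineages, 3 of 10 epithelial and 5 of 13 muscle markers are named, with median log2 differences of 0.86 and 0.65. The arrays were apart, with Bahd1-KO above, for all 5 muscle markers, as for 59.7% of named and 11.4% of all clusters. They were apart in the same way for 2 of the 3 epithelial markers. The groups of the third, Krt20, overlapped, with a mean difference of 0.53, or 0.28 without the Bahd1-WT MEFs 3. Bahd1 is not among the named clusters, so its own level was not looked up.

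The named genes whose profile over the 6 arrays was most like the mean of the 5 standardised chemokine genes, with Pf4 entered in its own direction, were Cflar, an inhibitor of caspase activation (r = 0.986), Mtmr10 (r = 0.984), Zfp365 (r = 0.975), Ift81 (r = 0.975) and Nek7, a kinase (r = 0.972). Cflar was at 7.14, 7.28 and 7.21 in Bahd1-KO MEFs, against 6.76, 6.83 and 6.78 in Bahd1-WT MEFs. In deviations from the genotype means, the closest were Nek7 (r = 0.947), Trim12a (r = 0.857), Mtmr10 (r = 0.855), Cflar (r = 0.832) and Samd5 (r = 0.828). Nek7, Mtmr10 and Cflar are on both lists, an overlap that is partly built in, since the log2 values contain the same deviations. The r values of the first list include the difference between the genotypes, for which all named clusters were chosen. Both lists describe 6 arrays and carry no test.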

How the data were processed

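RNA of 6 MEF cultures, 3 Bahd1-KO and 3 Bahd1-WT, was measured on Mouse Exon 1.0 ST arrays. The authors corrected the background, normalized between arrays and summarised probes to transcript clusters with RMA, and deposited log2 values for 23332 clusters. Software version and annotation build are not given in the sources used here. Their comparison table repeats the log2 values of 491 clusters, with symbols, positions, a fold change, an SD and adjusted p-values of an LPE test, which were not used.

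Groups come from the sample titles. Differences are group means, and standard errors are from limma 3.58.1 in R 4.3.3 (lmFit, eBayes) fitted on all clusters without a filter, with Benjamini-Hochberg adjustment. The script was tested on simulated data. Members and lists were chosen with earlier results of these data known. The genes named are the 5 members, listed genes that the files name, nearest named neighbours and the genes of most similar profile. Alternatives were a second quantile normalization, median centring, medians, a Y-linked covariate, other priors, array weights, brighter clusters, the replicate number as a block and each array left out. Nothing says whether cultures of 1 genotype share a litter. With 3 arrays a genotype, precision is limited by their number: the smallest two-sided p open to exact permutation is 0.1. Reported correlations are Pearson's r of deviations from genotype means, except the first list of most similar profiles, which uses the log2 values.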

Additional observations from a re-analysis of the deposited data

How the results depend on the processing

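The direction of all 5 chemokine genes was the same under each of the 11 alternatives run. Most of these could not have changed it. The groups of all 5 genes are apart, so medians or leaving out 1 array keep the direction. In this balanced design the replicate block returns the same differences as the main fit. The log2 difference ran from 0.64 to 0.85 for Ccl2, 0.80 to 0.95 for Ccl7, 1.33 to 1.64 for Ccl17, 0.74 to 0.89 for Ppbp and -0.82 to -0.50 for Pf4, with these same bounds when each array was left out. For the other genes named, 445 values under these alternatives stayed within 1 SD of the replicates, and 3 moved further, those of Kdm5d, Ddx3y and Eif2s3y (all Y-linked) with group medians.

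Over all clusters limma called 0 higher and 0 lower at an adjusted p under 0.05, with 1527 and 898 at an unadjusted p under 0.05, and also 0 and 0 without any 1 array. Fitted again on only the 11666 clusters above the median brightness, limma called 29 higher and 7 lower. The smallest adjusted p of limma was 0.0484 there and 0.222 over all clusters. Fewer clusters are tested in that fit, and the prior for the variance comes from these clusters alone. The part of each was not tested. With the replicate number as a block it called 0 and 0. Same-numbered cultures did not deviate together (r of -0.001, 0.027 and 0.000). These values gave no sign of a pairing by number and cannot exclude one.

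The count of clusters with every Bahd1-KO array above every Bahd1-WT array was 2663, and 3820 to 3999 without 1 array, where separation needs fewer arrays. It was 3999 without the Bahd1-WT MEFs 3. The count of clusters at least 2-fold higher was 85, 108 to 167 without 1 array, 133 with group medians and 22 among brighter clusters. It was 167 without the Bahd1-KO MEFs 2, 142 without the Bahd1-WT MEFs 1 and 141 without the Bahd1-WT MEFs 2. The cause was not tested. The correlation of deviations ran from -0.46 to 0.86 for Ccl2 with Ccl7 and from -0.83 to 0.16 for Ppbp with Pf4 without 1 array, and thus had no stable sign.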
